A study of Bos grunniens with 36 samples.

Results

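The genes described here encode the machinery that carries a new secretory protein into the endoplasmic reticulum and onwards in coated vesicles. They are the 51 genes of the deposited expression table whose array symbol begins with SEC, SSR, SRP, SPCS or SAR1 followed by a number or letter of that family, or is one of the COPI coat symbols COPA, COPB, COPE, COPG and COPZ. They stand among 20110 genes and unnamed transcripts in that table, and each was read from its probe with the highest mean over the arrays. By role, 6 belong to the signal recognition particle, 6 to the translocon, 4 to the translocon-associated protein complex, 5 to signal peptidase, 13 to the COPII coat and 8 to the COPI coat. The other 9 were taken in by their symbol. SEC22B is a membrane fusion protein, and SEC22A and SEC22C are its relatives. SEC23IP binds a COPII subunit, and SEC14L1, SEC14L2, SEC14L3 and SEC14L6 are lipid-binding proteins. The files name SEC1 as a fucosyltransferase, so that it is no part of the secretory machinery despite its symbol. SEC14L4 and SEC14L5 have probes on the array and are not in the table, so they were not analysed here.

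The samples were biopsies of mammary gland from 4 female yaks (Bos grunniens), each sampled at 9 times around calving, which gave 36 single-colour arrays of a cattle design. The groups are day -30 and day -15 before calving and days +1, +15, +30, +60, +120, +180 and +240 after it, with 4 arrays each, 1 per yak. The labels give no treatment and no age, and the biopsies came from the rear of the udder, from its left and right side in turn. The question of the study was how the transcriptome of the gland changes through lactation, with every day set against day -30 and each day against the one before it.

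Milk proteins such as the caseins are made on ribosomes that the signal recognition particle brings to the endoplasmic reticulum, where the SEC61 channel passes the growing chain through the membrane. The translocon-associated proteins assist the channel and signal peptidase removes the leading peptide. COPII vesicles then carry cargo from the endoplasmic reticulum towards the Golgi, and COPI vesicles return escaped proteins and receptors.

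Levels are given as log2 of a spot's signal relative to the 75th percentile of its array, so a level of 0 is the array's 75th percentile and a difference is a log2 fold change relative to it. Levels of different probes cannot be set against each other. Differences between days were tested with limma over all 20110 genes with the animal as a random block, adjusted by the method of Benjamini and Hochberg, and a gene was called at an adjusted p under 0.05. The standard error (SE) of a difference rests on a gene's spread within days, pooled over the 36 arrays. When values of 4 arrays are listed they stand in the order of yaks 1 to 4.

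The 2 records of the days disagree, and the arrays differ in brightness. Each of the 36 columns of the table equals the values of 1 scanner file, but in 36 of 36 cases that file is deposited under another sample, and in 27 cases under another day. The days used here are those of the table's columns. With the days of the scanner files, 9 of 51 members passed the test over all days in place of 27, none at day +15, 20 at day +30 and 3 at day +60. The matching shares of all genes were 21.7, 1.24, 19.4 and 8.47%. In the table's record each of the 9 slides holds the arrays of 1 day, so slide and day cannot be told apart, nor can the animal and its position on the slide. The 75th percentile of the signal before scaling ranged from 1029.2 to 6450.4, and 68.6 to 89.3% of spots were above background. Members were above background on all 36 arrays, except SEC14L2 with 34 arrays and SEC14L3 with 20. The caseins, which define secretory tissue, were above background on all 36 arrays. In tissue, fewer cells of a type and less RNA per cell cannot be told apart.

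Several members come in related pairs. In 5 pairs the members, on the probe chosen per gene, lay on either side of 0, and these 60-base probes are shown so that a reader can see how different the measured sequences are. Probe positions are those of the files on the cattle assembly UMD 3.1, and the capitals mark the longest run of bases that the probes of a pair share, which was 7 bases for COPZ1 and COPZ2 and 6 bases in the other pairs shown. SEC61A1 lies at chr22:60216377-60216436 and SEC61A2 at chr13:12269051-12269110, both on the minus strand. SEC11C lies at chr24:58670165-58670224 on the plus strand and SEC11A at chr21:22754785-22754844 on the minus strand. SEC23B lies at chr13:38900236-38900295 on the plus strand and SEC23A at chr21:49490146-49490205 on the minus strand. COPG1 lies at chr22:59816672-59816731 on the plus strand. For COPG2 the files give only a stretch of 30 bases, chr4:95079889-95079918, on the minus strand. COPZ1 lies at chr5:25838402-25838461 on the minus strand and COPZ2 at chr19:39089863-39089921 on the plus strand.
SEC61A1: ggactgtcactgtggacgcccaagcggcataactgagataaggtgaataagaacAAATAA
SEC61A2: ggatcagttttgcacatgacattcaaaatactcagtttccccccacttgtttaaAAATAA
SEC11C: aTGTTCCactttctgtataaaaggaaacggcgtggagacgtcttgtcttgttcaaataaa
SEC11A: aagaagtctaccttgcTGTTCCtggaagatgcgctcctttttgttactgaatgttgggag
SEC23B: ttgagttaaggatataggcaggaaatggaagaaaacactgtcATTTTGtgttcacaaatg
SEC23A: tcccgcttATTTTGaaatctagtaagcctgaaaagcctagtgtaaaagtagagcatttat
COPG1: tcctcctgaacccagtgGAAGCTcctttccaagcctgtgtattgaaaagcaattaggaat
COPG2: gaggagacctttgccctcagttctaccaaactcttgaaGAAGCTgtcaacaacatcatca
COPZ1: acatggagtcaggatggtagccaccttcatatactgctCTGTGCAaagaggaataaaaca
COPZ2: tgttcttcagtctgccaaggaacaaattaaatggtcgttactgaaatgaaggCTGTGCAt

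Most of the translocation machinery and a smaller part of the coats were higher at days +15 and +60 than at day -30. Over all days, 27 of the 51 members passed limma's F test, which is 52.9%, against 42.3% of all genes. At day +15, 24 members were called, where 17.9% of all genes were, and at day +60, 31 were, where 29.3% were. At day +15, 23 members were higher than at day -30, where 10.2% of all genes were called higher, and SEC1 alone was lower, where 7.71% of all genes were. At day +60, 27 members were higher, where 12.6% of all genes were, and 4 were lower, where 16.7% were. All 23 members called higher at day +15 were among the 27 at day +60, and the 4 added at day +60 were SEC61A1, SSR1, SPCS2 and SEC16B. In each of these calls for a higher level, all 4 animals were higher and the arrays of the compared days did not overlap. A call favours genes of that kind, and the share of all genes without overlap was not taken, so this is a description only. The median difference over all members was 0.76 at both days, against -0.01 and -0.12 over all genes. With quantile normalization it was 0.43 at both days, and with normexp background correction 0.39 and 0.40. Over all days the F test then passed 16 and 19 of the 51 members, where it passed 37.7 and 39.3% of all genes.

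**Figure D1:**
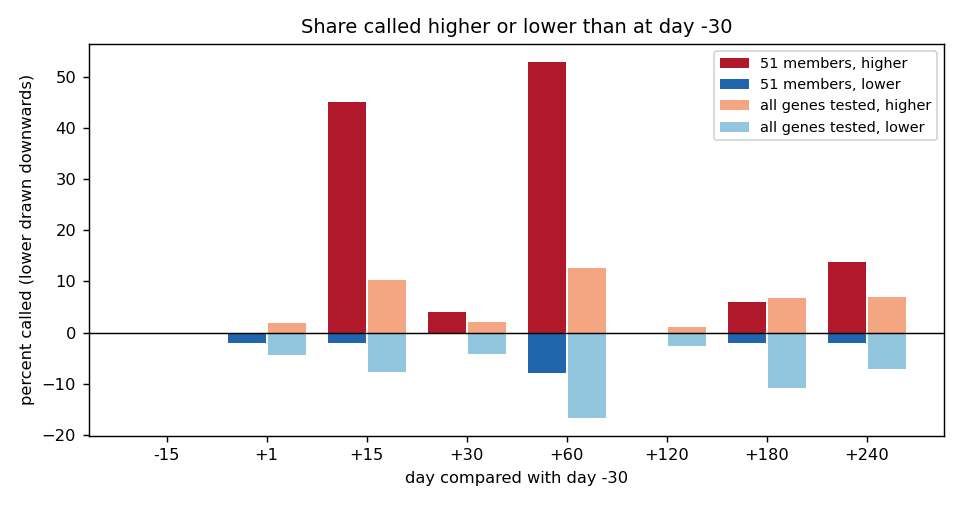
Percent of the 51 members and of all 20110 genes called higher (upwards) or lower (downwards) than at day -30, by day. Members called higher reach 45.1% at day +15 and 52.9% at day +60, against 10.2% and 12.6% of all genes.

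At the other days few members passed. At day -15, members called numbered 0 with limma, where 0.00497% of all genes were called, and 0 of 51 had an unadjusted p under 0.05. At day +1 SEC61A2 was lower, where 4.3% of all genes were called lower and 6.24% in either direction. At day +30 SAR1A and SRP54 were higher, where 2.12% of all genes were, with 4.26% lower and 6.37% in all. Neither passed with no replicate block (adjusted p = 0.0552 for SAR1A and 0.0616 for SRP54, limma) or with the animal as a fixed effect (0.056 and 0.0535). Over all alternatives the adjusted p ran from 0.00425 to 0.248 for SAR1A and from 0.00535 to 0.237 for SRP54. At day +120 limma called 0 members, where 3.76% of all genes were called in either direction. An unadjusted p under 0.05 was found for 4 members, and the share of all genes at that threshold is not given here. At day +180 SRP54, SEC63 and SEC22C were higher, where 6.67% of all genes were, and SEC1 was lower, where 10.8% were, 17.4% in all. At day +240, 7 members were higher, where 6.86% of all genes were, and SEC14L2 was lower, where 7.08% were, 13.9% in all. The 7 were SRP54, SRP68, SSR2, SEC11C, SEC22B, SEC22C and SEC23IP. The 8 comparisons share the 4 arrays of day -30. The median difference of the members was 0.00 at day -15, 0.16 at day +1, 0.24 at day +30, 0.30 at day +120, 0.38 at day +180 and 0.59 at day +240. By day means, 21 members were highest at day +60 and 15 at day +15, and 19 were lowest at day -30.

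**Figure D2:**
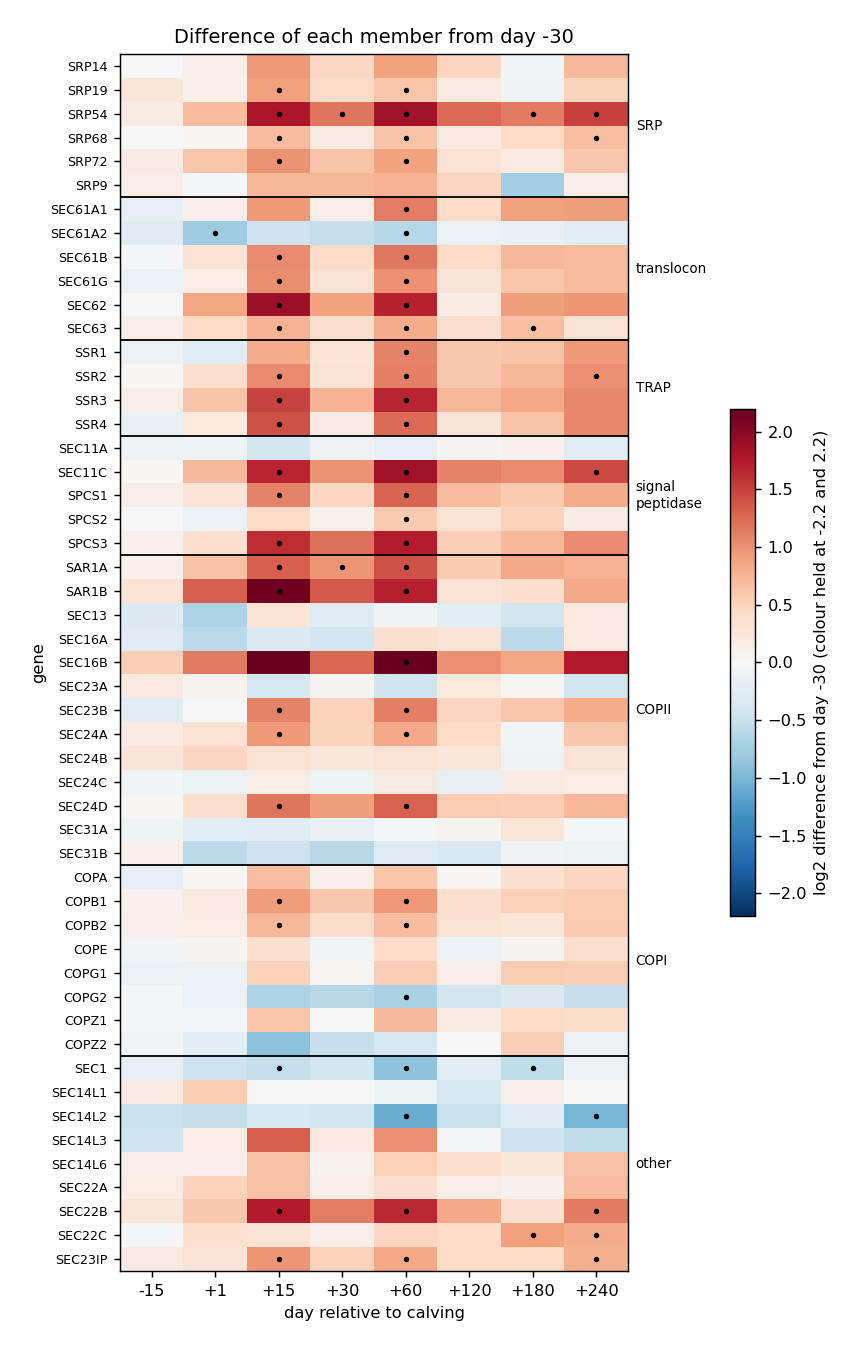
Log2 difference of each of the 51 members from day -30 (rows, grouped by role) at the 8 later days (columns), with colour held beyond the ends of its scale and a dot where limma's adjusted p was under 0.05. Red cells with dots fill the upper blocks at days +15 and +60, while most rows of the COPII and COPI blocks carry no dot.

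Between neighbouring days 1 member was called. SRP19 rose from day +1 to day +15 by 0.80 ± 0.19 (SE, limma adjusted p = 0.0487), higher in 4 of 4 animals, where 0.318% of all genes were called and 0.179% were called higher. In that step the median difference of the members was 0.65, 27 members had an unadjusted p under 0.05, and a limma fit of the 8 arrays alone called 19. In the other 6 steps limma called 0 members at an adjusted p under 0.05. The shares of all genes called at that threshold were, in order of time, 1.79, 0.0149, 0.88, 0.895, 0.338 and 0.801%. Members at an unadjusted p under 0.05 numbered 2 from day -15 to day +1, 9 from day +15 to +30, 12 from day +30 to +60, 16 from day +60 to +120, 3 from day +120 to +180 and 7 from day +180 to +240. The shares of all genes at an unadjusted p, and in the fit of 8 arrays for the step to day +15, are not given here. Those counts therefore cannot be set against the shares above.

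The signal recognition particle binds the leading peptide of a new protein as it leaves the ribosome, and 4 of its 6 measured members were higher at both day +15 and day +60. SRP54, the subunit that binds that peptide, had the strongest F test of all members. Its levels were 0.15, 0.54, 0.46 and 0.48 at day -30. They were 1.74, 2.48, 2.00 and 2.52 at day +15 and 2.00, 2.01, 2.55 and 2.50 at day +60. Every array of either later day was above every array of day -30. The difference was 1.77 ± 0.37 (SE) at day +15 and 1.85 ± 0.37 at day +60, a 3.61-fold higher level, with limma adjusted p = 0.00296 and 0.000611. SRP54 was also higher at day +30 by 1.17, at day +180 by 1.14 and at day +240 by 1.50, so that it was called at 5 of the 8 days, of which day +30 depends on how the animal is modelled. Its spread widened late: at day +240 yak 1 stood at 0.77 and yak 3 at 2.65.

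SRP19, which helps SRP54 onto the particle's RNA, went from 1.47, 1.78, 1.50 and 1.84 at day -30 to 2.30, 2.51, 2.40 and 3.01 at day +15. Those groups did not overlap, and the difference was 0.91 ± 0.19 (SE, limma adjusted p = 0.00285). At day +180 the SRP19 arrays, at 1.36 to 1.77, overlapped those of day -30, and the lowest fell below that range. SRP72 and SRP68, which form a pair of subunits on the particle, were higher at day +15 by 0.98 and 0.69 and at day +60 by 0.89 and 0.63. The SRP72 arrays were 0.53, 1.54, 0.90 and 1.28 at day -30 and 1.93, 2.14, 1.99 and 2.12 at day +15. The second probe of SRP72 moved less, by 0.54 at day +15 and 0.35 at day +60. The SRP68 arrays were 1.90, 1.69, 1.89 and 1.94 at day -30 and 2.30, 2.71, 2.22 and 2.96 at day +15. SRP9 and SRP14, the pair that slows the ribosome, passed in none of the 8 comparisons with day -30. At days +15 and +60 SRP14 had differences of 0.94 and 0.89, and SRP9 of 0.73 and 0.76. SRP9 passed the F test (limma adjusted p = 0.0139) and SRP14 did not.

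In the translocon, 4 of 6 measured members were higher at day +15 and 5 at day +60. SEC62, which with SEC63 helps proteins through the channel and takes part in clearing excess endoplasmic reticulum, moved most. Its levels were 1.99, 3.05, 2.65 and 2.64 at day -30, then 4.19, 4.43, 4.36 and 4.86 at day +15 and 3.72, 4.29, 4.60 and 4.48 at day +60. No array of those later days fell to the level of a day -30 array. The difference of SEC62 was 1.88 ± 0.43 (SE, limma adjusted p = 0.00585) at day +15, a 3.68-fold higher level, and 1.69 ± 0.43 (adjusted p = 0.00491) at day +60. The other 5 probes of SEC62 moved by 1.73 to 2.10 at day +15. SEC63, a partner that recruits the chaperone HSPA5, was higher by 0.76 at day +15, 0.81 at day +60 and 0.67 at day +180.

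SEC61G, the small gamma subunit of the channel, went from 3.13, 3.03, 3.07 and 2.87 at day -30 to 3.84, 4.19, 3.79 and 4.35 at day +15. At day +60 SEC61G stood at 3.80, 4.33, 4.03 and 3.92, again above every day -30 array, with a difference of 1.00 ± 0.29 (SE, limma adjusted p = 0.0125). SEC61B, the beta subunit, named after its values were seen, was higher by 1.03 at day +15 and 1.16 at day +60. SEC61A1, a pore subunit, was higher at day +60 by 1.12 ± 0.43 (SE, limma adjusted p = 0.0465), while its difference of 0.94 at day +15 did not pass. SEC61A2, the other pore subunit, was lower at day +1 by a difference of -0.78 and at day +60 by a difference of -0.63. Of the 3 further probes of SEC61A2, 2 had the opposite sign at day +60, at 0.34 and 0.18, and the remaining probe had -0.45.

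**Figure D3:**
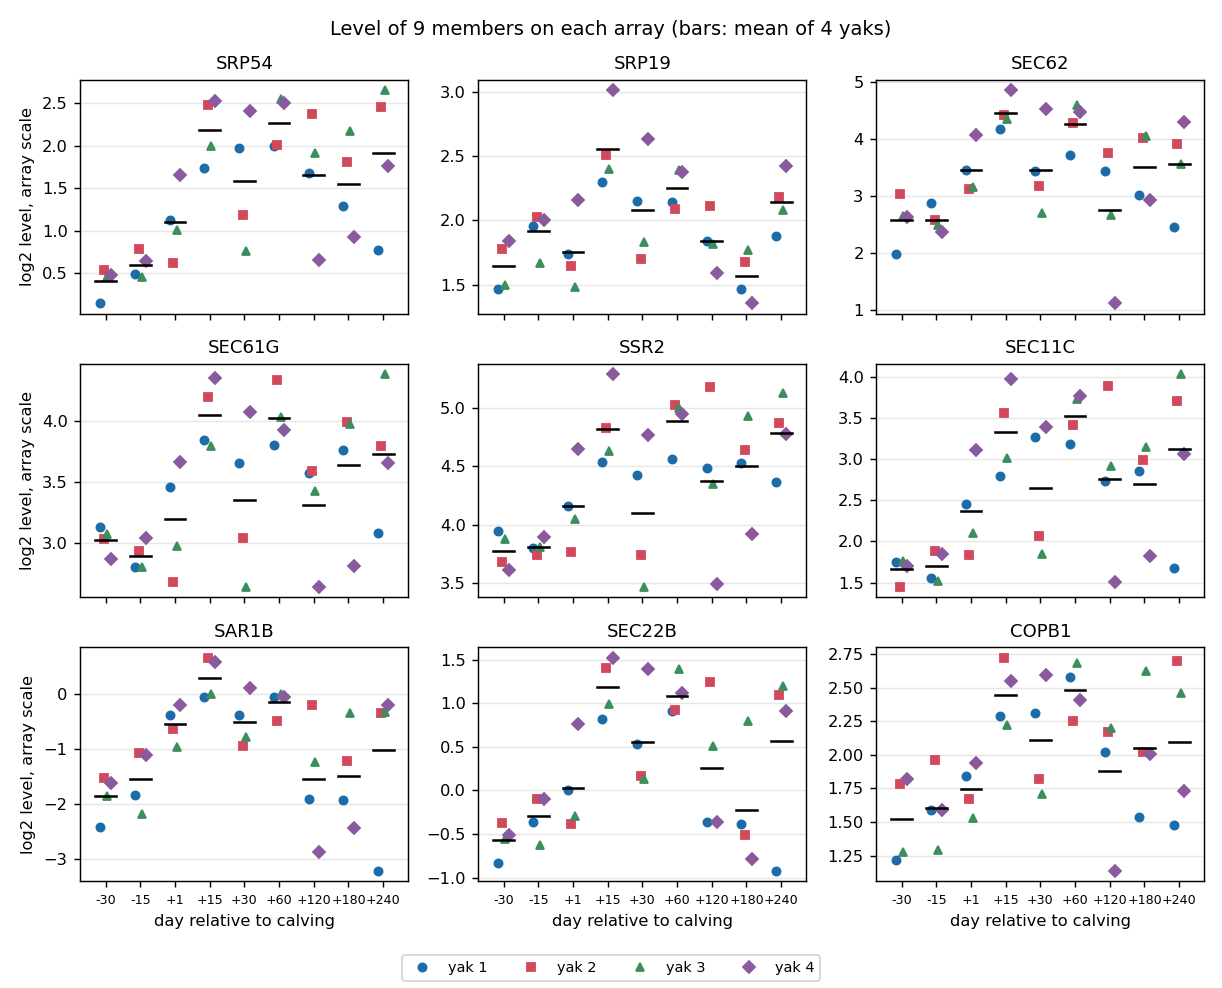
Level (log2, relative to the 75th percentile of the array) of 9 members on each array by day, with a symbol per yak and a bar at the mean of the 4 yaks. All arrays of days +15 and +60 lie above those of day -30 for each of the 9, and single yaks drop back at days +30, +120, +180 and +240.

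All 4 genes of the translocon-associated protein complex, which sits beside the channel, passed the F test. At day +60 all 4 were higher than at day -30, and at day +15 all but SSR1 were. The difference of SSR1 at day +15 was 0.82 on the chosen probe and 0.93 to 1.49 on its 5 further probes. SSR3, the gamma subunit, went from 2.73, 2.04, 2.47 and 2.31 at day -30 to 3.98, 4.10, 4.06 and 4.12 at day +60. The day +60 arrays of SSR3 lay within 0.14 of each other, far above day -30, and the difference was 1.68 ± 0.41 (SE, limma adjusted p = 0.00358), a 3.20-fold higher level. SSR2, the beta subunit, went from 3.95, 3.68, 3.88 and 3.61 to 4.56, 5.03, 5.0 and 4.95 over the same days, a difference of 1.10 ± 0.28 (SE, adjusted p = 0.00519), and was higher by 1.00 at day +240. Of the further probes of SSR2, 1 had a difference of -0.24 at day +60. SSR4, the delta subunit, named after its values were seen, was higher by 1.40 at day +15 and 1.24 at day +60. SSR1, the alpha subunit, was higher by 1.09 at day +60, and its 5 further probes had differences of 0.97 to 1.50.

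Signal peptidase cuts the leading peptide, and 3 of its 5 genes were higher at day +15 and 4 at day +60. SEC11C, a catalytic subunit, went from 1.75, 1.45, 1.76 and 1.70 at day -30 to 2.79, 3.56, 3.01 and 3.97 at day +15. At day +60 SEC11C stood at 3.18, 3.41, 3.73 and 3.76, so the arrays of both later days lay above all of day -30. Its difference at day +60 was 1.85 ± 0.44 (SE, limma adjusted p = 0.00286), a 3.62-fold higher level, and at day +240 it was 1.46, higher in 3 of 4 animals. SEC11A, the other catalytic subunit, stood at 1.02, 0.55, 0.68 and 0.78 at day -30 and at 0.81, 0.71, 0.51 and 0.30 at day +60, which overlap, and its difference of -0.17 did not pass. SPCS3, an accessory subunit, went from 1.78, 1.28, 1.56 and 1.72 at day -30 to 3.51, 3.18, 3.21 and 3.37 at day +60, a difference of 1.73 ± 0.43 (SE, limma adjusted p = 0.00384) with no overlap. SPCS2 was higher at day +60 by 0.57 and SPCS1, named after its values were seen, by 1.28.

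Of the 21 genes of the signal recognition particle, the translocon, its associated proteins and signal peptidase together, 17 passed the F test, and 14 were higher at day +15 and 17 at day +60. Of the 21 coat genes, 6 passed the F test, and 7 were higher at day +15 and 8 at day +60. The F test passed 28.6% of the coat genes and 81% of the translocation genes, against 42.3% of all genes, and at day +60 38.1% and 81% were called higher, against 12.6% of all genes. The median difference at day +60 was 1.09 in the first set and 0.54 in the coats. These are descriptions, and the difference between the sets was not tested.

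COPII coats form when the GTPase SAR1 recruits the inner layer of SEC23 and SEC24 and then the outer cage of SEC13 and SEC31. Of 13 measured COPII genes, 5 were higher at day +15 and 6 at day +60. SAR1B, one of the GTPases, had the widest difference among the members called at day +15. Its levels were -2.42, -1.53, -1.85 and -1.61 at day -30, then -0.05, 0.65, -0.01 and 0.58 at day +15 and -0.06, -0.49, 0.00 and -0.06 at day +60. Both later days stood clear of day -30. The difference of SAR1B was 2.15 ± 0.50 (SE, limma adjusted p = 0.00654) at day +15, a 4.43-fold higher level, and its second probe moved by 2.06. SAR1A, the related GTPase, went from -0.04, -0.49, -0.05 and -0.25 at day -30 to 0.61, 1.45, 0.89 and 1.47 at day +15, a difference of 1.31 ± 0.30 (SE, adjusted p = 0.00587). SAR1A was also higher at day +30 by 0.98 and at day +60 by 1.41.

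SEC23B, an inner layer subunit, went from 2.05, 1.52, 1.92 and 1.92 at day -30 to 2.56, 3.03, 2.73 and 3.46 at day +15 and 2.89, 2.83, 2.96 and 3.15 at day +60. Neither later day overlapped day -30, and the differences were 1.09 and 1.11 (limma adjusted p = 0.0388 and 0.0252). Of the cargo-binding SEC24 subunits, SEC24A was higher by 0.93 and 0.83 at days +15 and +60 and SEC24D by 1.18 and 1.30, while SEC24B at 0.34 and 0.33 and SEC24C at 0.17 and 0.20 did not pass. SEC16B, which marks the sites where COPII forms, was named after its values were seen. It was higher at day +60 by 3.15 ± 1.10 (SE, limma adjusted p = 0.0322), from -0.96, -3.61, -1.55 and -1.87 to 0.90, 1.16, 1.24 and 1.33, and its difference of 2.91 at day +15 did not pass. SEC16B also varied most between animals later: at day +240 it stood at -4.38 in yak 1 and at 1.58 in yak 3. The cage genes SEC13, SEC31A and SEC31B had differences of -0.07, -0.02 and -0.30 at day +60, and SEC16A of 0.35. None of these 4 passed at any of the 8 days, and the lowest and highest of their differences were -0.68 for SEC13 at day +1 and 0.35 for SEC16A at day +60.

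In the COPI coat, which buds from the Golgi, 2 of 8 measured genes were higher at both days. COPB1, the beta subunit, went from 1.22, 1.78, 1.28 and 1.82 at day -30 to 2.29, 2.72, 2.22 and 2.55 at day +15 and 2.58, 2.25, 2.68 and 2.41 at day +60. The groups did not overlap, and the differences were 0.92 ± 0.26 (SE) and 0.95 ± 0.26, with limma adjusted p = 0.0185 and 0.00837. COPB2, the beta prime subunit, was higher by 0.73 and 0.68. COPG2, a gamma subunit, was lower at day +60 by a difference of -0.72, with 0.34, 0.35, 0.35 and 0.23 against 0.77, 1.39, 0.84 and 1.15 at day -30, and its second probe had -0.85. COPZ2, a zeta subunit, passed the F test (limma adjusted p = 0.0408) but none of the 8 comparisons with day -30. Its levels were lowest at day +15, at 0.74, 0.75, 1.23 and -0.02, and stood at 2.28, 2.40, 1.65 and 2.14 at day +180. COPA, COPE, COPG1 and COPZ1 did not pass, with differences at day +60 of 0.60, 0.42, 0.54 and 0.71.

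Among the 9 further genes, SEC22B, a SNARE protein of vesicles between the endoplasmic reticulum and the Golgi, was higher at days +15, +60 and +240. It went from -0.83, -0.37, -0.56 and -0.51 at day -30 to 0.82, 1.41, 0.99 and 1.52 at day +15 and 0.91, 0.92, 1.39 and 1.12 at day +60. The groups did not overlap, and the difference of SEC22B at day +15 was 1.75 ± 0.39 (SE, limma adjusted p = 0.00454), a 3.37-fold higher level. The second probe of SEC22B moved less, by 0.76 at day +15 and 0.70 at day +60. SEC22C differed from the other members in its timing: it was called at days +180 and +240 only, with differences of 0.91 and 0.81, and its differences at days +15 and +60, 0.33 and 0.45, did not pass. Its arrays at day +180, at -0.35, -1.0, -0.75 and -0.86, overlapped those of day -30, at -0.96, -2.29, -1.74 and -1.60. SEC23IP was higher by 0.97 at day +15, 0.85 at day +60 and 0.77 at day +240. SEC1 was lower at days +15, +60 and +180, with differences of -0.52, -0.88 and -0.56. Its arrays were -0.61, -0.63, -0.21 and -0.97 at day -30 and -1.70, -1.56, -1.19 and -1.49 at day +60, which do not overlap. SEC14L2 was lower by differences of -1.09 at day +60 and -1.01 at day +240. SEC14L1, SEC14L3, SEC14L6 and SEC22A did not pass at any of the 8 days, and SEC14L3, dim on 16 arrays, had differences from -0.56 to 1.31. Its second probe, above background on 18 arrays, had differences of 4.74 at day +15 and 5.46 at day +60.

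Some related members differed in their change. For 13 pairs the difference between the members on the 4 arrays of day +15 or day +60 was set against that on the 4 arrays of day -30, which made 26 comparisons, with days chosen after the values were seen. The same 4 yaks gave the arrays of every day. In 18 of the 26 comparisons all 4 yaks moved the same way, and an exact two-sided permutation test within animals, chosen after seeing the data, gave p = 0.125, the smallest that 4 animals allow. No pair can therefore pass 0.05 within animals. An exact two-sided permutation test that exchanges the 8 arrays as if they were independent gave p = 0.0286 in the same number, 18, and 0.0413 after Benjamini-Hochberg adjustment over the 26. The change of SEC61A1 less SEC61A2 was 1.76 ± 0.12 (SE over arrays) at day +60, that of SEC11C less SEC11A 2.03 ± 0.26, that of SEC23B less SEC23A 1.54 ± 0.33, that of COPG1 less COPG2 1.26 ± 0.37 and that of COPZ1 less COPZ2 1.08 ± 0.23. In these 5 pairs the difference was higher than at day -30 in 4 of 4 yaks at both days. The members set first had differences from day -30 at day +60 of 0.54 to 1.85, and those set second had differences of -0.72 to -0.17. These values rest on 1 probe per gene. At day +60 the further probe of SEC11A had 0.14, and further probes of SEC61A2 had 0.34, 0.18 and -0.45. The further probe of COPZ1 had 0.26. A further probe of SEC23A had 0.24 at day +15. The further probes of SEC61A1, SEC11C, SEC23B, SEC23A and COPG2 kept their sign at day +60, and COPG1 and COPZ2 have none. The change of SAR1A less SAR1B was -0.83 ± 0.30 at day +15, lower in 4 of 4 yaks, and -0.30 ± 0.34 at day +60, lower in 3 of 4. For SEC31A less SEC31B it was 0.28 ± 0.24 at day +60, higher in 3 of 4 yaks. Among the SEC24 genes at day +60, the change of SEC24A less SEC24B was 0.50 ± 0.18 and that of SEC24A less SEC24C 0.62 ± 0.30, higher in 4 of 4 yaks. The change of SEC24C less SEC24D was -1.09 ± 0.20 and that of SEC24B less SEC24D -0.97 ± 0.28, lower in 4 of 4. The yaks were split for SEC24A less SEC24D, at -0.47 ± 0.40, and for SEC24B less SEC24C, at 0.12 ± 0.22. With the log2 brightness of the array (its 75th percentile before scaling) as a covariate, the day +60 changes of the 5 pairs turned negative, at -0.13 for SEC61A1, -0.10 for SEC11C, -0.90 for SEC23B, -0.25 for COPG1 and -0.42 for COPZ1 against their partners.

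**Figure D4:**
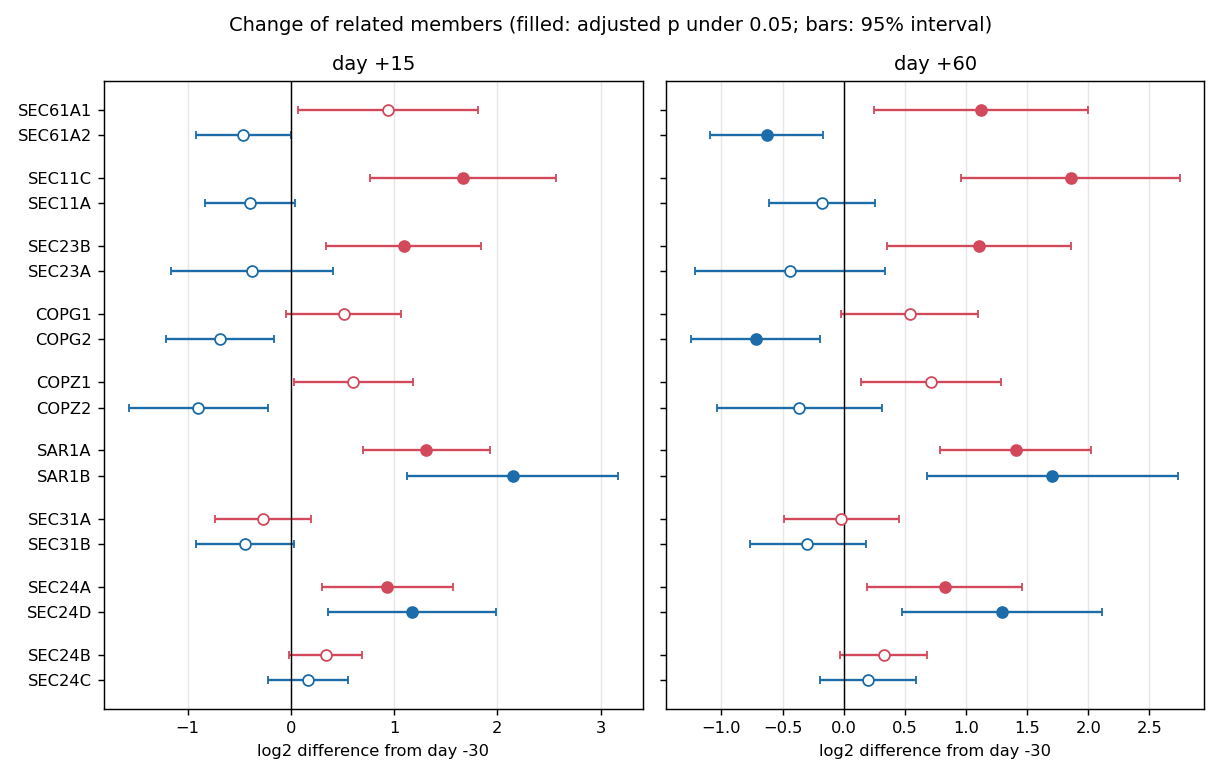
Log2 difference from day -30 (points, with 95% intervals from limma) of related members at day +15 and day +60, filled where the adjusted p was under 0.05. In the upper 5 pairs, on the probe chosen per gene, the first member lies right of 0 and the second left of it, while SAR1A and SAR1B both lie near 1.3 to 2.2. Further probes of SEC61A2, SEC11A and SEC23A in part had the opposite sign.

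The array means of the members can be set beside those of genes that mark milk-secreting cells. The mean of the 51 members was 0.52 to 0.65 on the arrays of day -30, 1.04 to 1.60 at day +15 and 1.20 to 1.38 at day +60. The mean of 9 markers of secretory epithelium was 3.56 to 4.51, 6.37 to 6.55 and 6.22 to 6.76 on the same days. At day +60, 4 of these 9 markers were called higher, CSN1S2, CSN3, LALBA and ELF5, where 12.6% of all genes were. All 9 were above background on all arrays. Some arrays stood apart. At day +120 yak 4 had a member mean of 0.38 and a marker mean of 1.05, where the other yaks had 0.84 to 1.29 and 6.06 to 6.77. At day +180 yak 4 had 0.51 and 0.90, against 0.73 to 1.33 and 5.76 to 6.70. At day +240 yak 1 had 0.45 and 4.09, against 1.12 to 1.50 and 5.98 to 6.81. At day +30 yaks 2 and 3 had member means of 0.70 and 0.44, against 1.17 and 1.26 for yaks 1 and 4, and marker means of 5.03 and 3.57 against 6.08 and 6.20. SEC62 stood at 1.13 in yak 4 at day +120, its lowest level on any array, and SAR1B at -3.20 in yak 1 at day +240.

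Brightness ran the other way on these arrays. At day +30 the 75th percentile of the signal before scaling was 4446.8 and 5698.5 in yaks 2 and 3, against 2171.5 and 1401.7 in yaks 1 and 4. It was 6450.4 in yak 4 at day +120, 4357.1 in yak 4 at day +180 and 3882.9 in yak 1 at day +240, in each case the brightest of its day. The arrays of day -30 ranged from 4854.0 to 5751.9, those of day +15 from 1029.2 to 2114.0 and those of day +60 from 1278.0 to 2511.9, with no overlap. With log2 brightness as a covariate, the median difference of the members was 0.01 at day +15 and 0.02 at day +60, and no member passed as higher at either day, in place of 23 and 27, while 1 and 3 members passed as lower. Of all genes, 3.51 and 13.8% passed in either direction. Of the calls among members, 0 of 24 and 1 of 31 were kept. Under that covariate the direction turned for 4 of the 24 at day +15 and for 10 of the 31 at day +60. Without the 2 arrays of yak 4 that were lowest in milk protein genes, the count was 5 at day +30, 5 at day +120, 16 at day +180 and 19 at day +240, in place of 2, 0, 4 and 8. The shares of all genes rose as well, to 9.23, 13.3, 27.7 and 19.7%, in place of 6.37, 3.76, 17.4 and 13.9%. With yak 3 left out, 2 members passed the F test, 5 passed at day +15 and 11 at day +60, and with yak 2 left out the counts were 6, 7 and 19. Fewer of all genes passed as well, at 10.5, 2.96 and 13% without yak 3 and 16.3, 7.17 and 18.6% without yak 2. The part of brightness, cell makeup and single animals in the differences was not tested further.

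**Figure D5:**
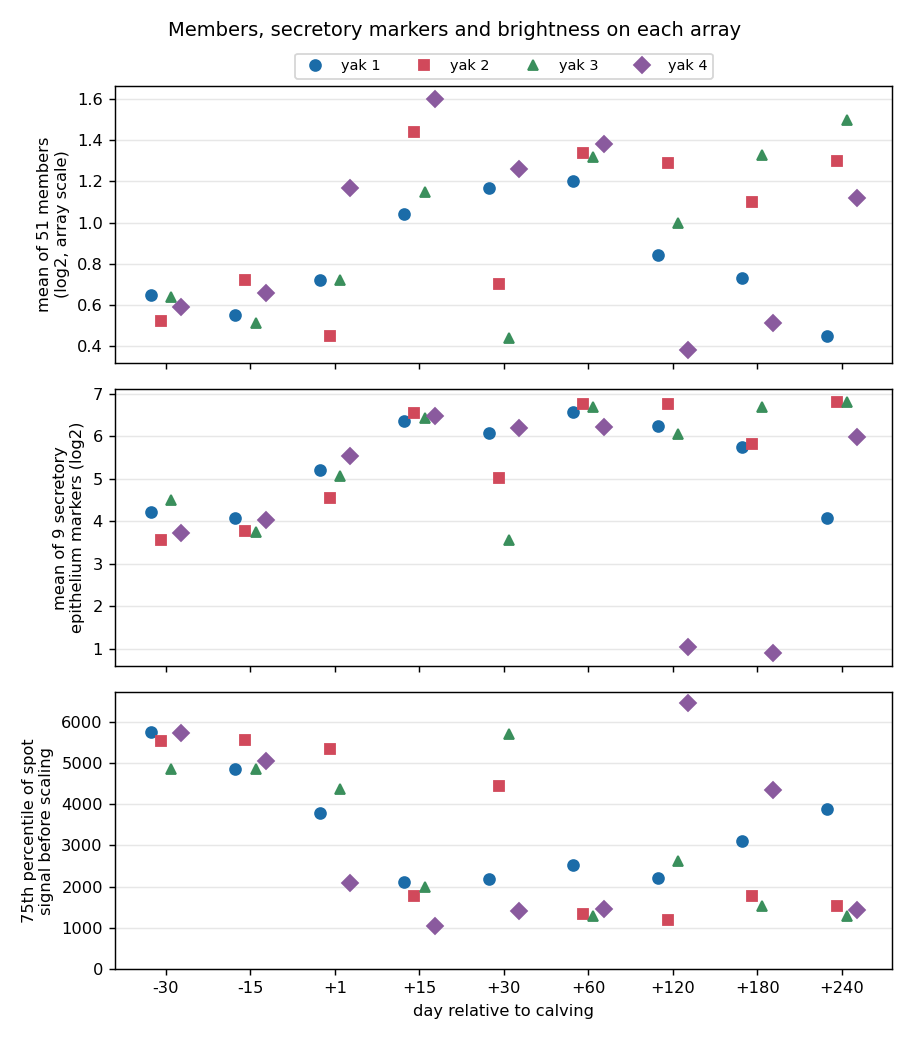
Mean log2 level of the 51 members (top), mean log2 level of 9 secretory epithelium markers (middle) and 75th percentile of the spot signal before scaling (bottom) on each of the 36 arrays, by day, with a symbol per yak. The arrays low in the upper panels at days +30, +120, +180 and +240 are the bright ones in the bottom panel.

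Genes that work beside the members were listed by function and read from the same fit. The oligosaccharyltransferase, which adds sugar chains to proteins entering the endoplasmic reticulum, had 6 of 10 measured genes higher at day +15 and 7 at day +60. They include STT3B, a catalytic subunit, at 1.21 and 1.29, DAD1 at 1.09 and 1.18, KRTCAP2 at 0.94 and 1.04 and OST4 at 0.84 and 0.98. Of 22 cargo receptors of the p24 and lectin families, 13 were higher at each of the days. KDELR3, a receptor that returns resident proteins, rose by 1.26 and 1.33 (limma adjusted p = 0.000735 and 9.45e-05), LMAN2 by 0.73 and 0.86, and TMED5 by 0.91 at day +15, while LMAN2L at -0.24 and 0.61 did not pass. Of 16 genes of COPII assembly and tethering, 8 were higher at each day, among them PREB, which activates SAR1, at 1.06 and 1.16 and RAB1A at 1.46 and 1.51. TRAPPC2 was higher by 0.96 at day +15 and TRAPPC4 by 0.76 at day +60.

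Of 14 genes around the COPI coat, 3 were higher at day +15 and 5 at day +60. They include ARFGAP3 at 1.77 and 1.96, ARF4 at 1.30 and 1.34 and, at day +60, STX18 at 0.58. ARF5, chosen after its values were seen, was lower at day +15 by a difference of -0.92. Of 13 targeting and insertion genes, 4 were higher at each day, with TRAM1 at 1.80 and 1.79, SERP1 at 1.85 and 2.00 and SRPR, a receptor for the signal recognition particle, at 1.28 and 1.61, while SGTA did not pass at either day. Of 16 genes of clathrin coats and later vesicles, 3 and 4 were higher, with CLTA at 1.02 and 0.99, SNAP23 at 1.00 and 0.96 and, at day +60, STXBP2 at 0.87, while AP1S3 at -0.80 and -0.54 did not pass. Of 13 regulators and chaperones of endoplasmic reticulum stress, 4 were higher at day +15 and 10 at day +60. DNAJC3 had 2.00 and 2.11, ATF4 1.70 and 1.91 and XBP1 1.18 and 1.23, and CREB3 passed at day +60 with 0.67. The shares of all genes called higher, 10.2 and 12.6%, apply to each of these counts.

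Markers of other cells moved as well. At day +60, 12.6% of all genes were called higher and 16.7% lower, and these shares apply to each count below. All 4 measured cell division genes were lower at day +60, with list means of -4.99 to -3.78 against -1.04 to -0.16 at day -30, and KIF20A was above background on 23 of 36 arrays and CCNB1 on 30. Of 4 macrophage markers, 2 were higher at day +60, CD14 and MARCO, with list means of 0.98 to 1.68 against -0.85 to -0.24. Of 5 neutrophil markers 2 were higher, S100A8 and S100A12, with list means of -2.88 to 0.68 against -3.76 to -3.23. Of 5 T cell markers 3 were lower, with -1.48 to -0.40 against -0.03 to 0.71. Of 7 myoepithelial markers 3 were higher, with 2.76 to 3.53 against 2.21 to 2.82, and of 5 endothelial markers 2 were, with 0.47 to 0.97 against -0.35 to 0.34. FABP4 alone of 5 adipocyte markers was higher, with 1.78, and list means of -1.10 to 3.07 overlapped the -0.95 to 0.23 of day -30. SDC1 was lower among 3 plasma cell markers and SLC4A1 among 5 erythrocyte markers, with overlapping list means for the latter, -3.62 to 0.18 against -3.15 to -1.79. None of the 6 fibroblast markers passed with limma at an adjusted p under 0.05, with 2.90 to 3.86 against 3.26 to 3.74. Their part in the differences of the members was not tested.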

How the data were processed

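RNA of 36 biopsies, 4 yaks at 9 days, was hybridised to a single-colour Agilent cattle array. Per the file headers, the scanner software was Feature Extraction 10.7.3.1, and the deposited scanner files give a processed intensity per spot, with local background subtracted and not scaled between arrays. The deposited table holds log2 values for 34997 of 43653 probes, made with GeneSpring 12 per the labels' design text, with the scaling step not given in the sources used here. Set against the scanner files, each column equalled 1 file less a constant, within 0.0041 of the log2 of that file's 75th percentile, and column medians ran from -1.70 to -1.34. No spot was saturated (0 spots).

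From the table, the probe brightest on average was kept per symbol, and unnamed transcripts stood on their own, which left 20110 of which 14196 have a symbol. Symbols are those of the files, and 49 of 51 members are also symbols of the yak RefSeq table. Of the members, 29 have more than 1 probe, 105 in all. Limma 3.58.1 in R 4.3.3 (statmod 1.5.0) fitted day as fixed effect and animal as random block, after the study's own model of time with yak as random, with an F test, 8 comparisons with day -30 and 7 between neighbouring days. Animals are the same at every day per the labels. Arrays of an animal deviated together from their days' means with an average r of 0.156, against -0.0523 between animals and with the lowest at -0.492. The animal cannot be told apart from the position of its arrays on the slide, so this r cannot be credited to the animal alone. On simulated data for day +30 against day -30 with 20110 genes, 36 of 100 genes changed by 1 and 77 of 100 changed by 2 were recovered, with 10 unchanged genes called. The simulated noise was drawn independently for each gene and array, with no animal, slide or brightness effect. Recovery on the real arrays can therefore differ. The number of arrays limits the precision.

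Genes given in full are the 3 members of each role with the lowest F p and those called at 3 or more of the 8 days, up to 24 by F p, with all related pairs and up to 4 genes per further list by F p. Others say that they were chosen after their values were seen. The members and lists were chosen with earlier results of these data known. Pairs were tested in Python 3.11.15 with scipy 1.17.1. Alternatives were other treatments of the animal, each animal left out, 2 arrays left out, other normalizations, background correction, a filter on dim probes, the mean of probes, brightness as a covariate, the other record of days and fits of 8 arrays. Promoter and protein sequences were not used here. A gene that this rule would name is not reported here.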

Additional observations from a re-analysis of the deposited data

Results flagged for a closer look

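Among 225 groups of 4 arrays examined, 12 held an array far from the other 3 by Dixon's 95% criterion, and chance gives about 1 in 20 groups, or 11.2. Yak 1 at day +240 stood low in SEC22B, at -0.92 where the others had 0.91 to 1.20, and in SAR1B, at -3.20 against -0.34 to -0.21. Yak 4 stood low at day +120 in COPB1, at 1.14 against 2.02 to 2.20, and in the mean of the secretory epithelium markers, at 1.05 against 6.06 to 6.77. The same marker mean was 0.90 in yak 4 at day +180, against 5.76 to 6.70. Yak 4 stood high in SSR1 at day +1, at 2.84 against 1.77 to 1.85, and in SRP72 at day +30, at 2.26 against 1.41 to 1.55. At day +60 SSR2 in yak 1 was 4.56 against 4.95 to 5.03, SAR1B in yak 2 was -0.49 against -0.06 to 0.00, and SRP68 in yak 3 was 2.34 against 2.51 to 2.54. At day -15 SRP72 in yak 1 was 1.38 against 1.18 to 1.21, and COPB2 in yak 2 was 2.00 against 1.52 to 1.54. The cause of these values was not tested.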

How the results depend on the processing

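Of 70 calls against day -30, tried under 15 alternatives in 1050 values, 664 kept direction and call, 370 kept direction only and 16 reversed. The cause was not tested. With brightness as a covariate the counts of members called were 13 over all days, 4 at day +1, 1 at day +15, 4 at day +30, 3 at day +60, 6 at day +120 and 1 at day +240, and 5 between neighbouring days. Of all genes, 40.4% passed over all days and, at those days against day -30, 13.9, 3.51, 11.8, 13.8, 10 and 9.13%. With brightness as a covariate the differences at day +15 were -0.15 for SEC23B and SEC61B, -0.16 for SPCS1 and -0.17 for SSR4. At day +60 they were 0.05 for COPG2, -0.65 for SEC16B, -0.19 for SEC23B, -0.33 for SEC61A1, -0.08 for SEC61B, SRP68 and SSR1, -0.04 for SEC61G, -0.03 for SPCS1 and -0.41 for SSR4. The pair changes with it, at days +15 and +60, were -0.40 and -0.13 for SEC61A1 less SEC61A2, -0.88 and -0.90 for SEC23B less SEC23A, and -0.25 at both for COPG1 less COPG2. They were 0.05 at day +15 for SAR1A less SAR1B and, at day +60, -0.10 for SEC11C less SEC11A, -0.42 for COPZ1 less COPZ2 and -0.07 for SEC24A less SEC24B. With the days of the scanner files the counts were 9 over all days, 0 at day +1, 0 at day +15, 20 at day +30, 3 at day +60, 1 at day +120, 1 at day +180, 0 at day +240 and 0 between neighbours, and SEC14L2 and SEC23IP had 0.36 and -0.02 at day +240. Quantile normalization gave 16 over all days, 2 at day +1, 4 at day +30, 18 at day +60, 2 at day +120, 4 at day +240 and 0 between neighbours. The matching shares of all genes were 37.7% over all days, then 9.16, 10.5, 21.8, 5.99 and 10.8%. Normexp gave 19 over all days, 2 at day +1, 4 at day +30, 16 at day +60, 3 at day +120, 3 at day +240 and 0 between neighbours. The matching shares of all genes were 39.3% over all days, then 9.03, 10.8, 21.2, 6.77 and 10.8%. Over all days the share of members was below that of all genes with quantile normalization, with normexp and with brightness as a covariate. The same held with the days of the scanner files and with yak 2 or yak 3 left out. Arrays centred on their median gave 0 at day +30, where 5.07% of all genes were called, and 0 between neighbours. The mean of a gene's probes gave 0 at day +1, 1 at day +120, 5 at day +240 and 0 between neighbours. The matching shares of all genes at those days were 6.14, 3.87 and 12.3%. With only the 8 arrays compared there were 5 at day +1, 5 at day +30, 2 at day +180, 2 at day +240 and 23 between neighbours. The matching shares of all genes at those days were 17.7, 9.17, 10.5 and 8.65%. Without the 2 arrays lowest in milk protein genes there were 5 at day +30, 5 at day +120, 16 at day +180 and 19 at day +240. The matching shares of all genes were 9.23, 13.3, 27.7 and 19.7%. Leaving out each yak in turn gave 2 to 20 over all days, 0 to 0 at day +1, 5 to 13 at day +15, 0 to 0 at day +30, 11 to 23 at day +60, 0 to 3 at day +120, 0 to 12 at day +180, 0 to 14 at day +240 and 0 to 1 between neighbours. In those fits 10.5 to 31.4% of all genes passed over all days. At days +1, +15, +30 and +60 it was 0.736 to 4.32, 2.96 to 7.84, 0.547 to 2.64 and 13 to 21.1% of all genes. At days +120, +180 and +240 it was 0.184 to 6.84, 6.35 to 17.9 and 1.19 to 14.4%. With no replicate block, 0 members passed at day +30 and 0 between neighbours, and with the replicate block as a fixed effect 0 at day +30, while the other counts stayed within 1.5 times. The matching shares of all genes at day +30 were 4.84 and 7.32%. A filter on dim probes changed no count. The slide as a block was not run, since each slide holds 1 day.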
